A study of Homo sapiens with 8 samples.

Results

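Transcripts of the aminoacyl-tRNA synthetases of HuH7 cells, a human hepatoma line, were compared between the ginsenoside Rk2 and its vehicle. All cells were sampled after 6 h of treatment that followed oxygen and glucose deprivation. The group was chosen by gene symbol and holds 38 genes, made up of 20 synthetases that act in the cytosol or in both compartments, 16 that act in mitochondria, and the scaffold proteins AIMP1 and EEF1E1. All 38 were among the 12928 genes tested, out of 15767 in the count table.

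All cells were wildtype HuH7 kept in glucose-free DMEM at 1% oxygen for 6 h and then returned to normoxia for 6 h in medium with DMSO alone (I/R+DMSO, n = 4) or with 20 µM Rk2 in DMSO (I/R+Rk2, n = 4). Each library was made from 250 ng of total RNA, and library totals ranged from 16374082 to 30310479 counts. Every value is therefore a contrast of Rk2 with its vehicle after OGD/R, and cells without deprivation were not analysed here. Nothing in the labels says that the libraries came from separate cultures, so p-values measure only the spread between these samples of 1 cell line.

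An aminoacyl-tRNA synthetase joins an amino acid to its tRNA, the step that sets which residue a codon delivers to the ribosome. Cytosol and mitochondria translate separately, and most amino acids have a synthetase gene for each compartment, whereas GARS and KARS each supply both compartments from a single gene. In the cytosol, EPRS, IARS, LARS, MARS, QARS, RARS, KARS and DARS are held in the multisynthetase complex by the scaffold proteins AIMP1, AIMP2 and EEF1E1 (also called AIMP3). Many cytosolic synthetase genes are textbook targets of ATF4, the transcription factor that is translated when amino acids run short or the endoplasmic reticulum is stressed.

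After Rk2, 12 of the 20 cytosolic or dual synthetases rose and none fell, while none of the 16 mitochondrial synthetases rose and 2 fell. The rises were modest, from 11.2% for MARS to 46.8% for EPRS, and no member changed by more than 1.5-fold. Calls are adjusted p-values below 0.05 in edgeR's quasi-likelihood test with Benjamini-Hochberg adjustment over all tested genes. By that rule 18.2% of all tested genes were called, 11.0% as higher in I/R+Rk2 and 7.23% as lower, and 3.04% were called with a fold change above 1.5. The share of cytosolic or dual synthetases called higher was 60.0%, and that of mitochondrial synthetases called lower was 12.5%. The median log2 fold change was 0.23 over the cytosolic or dual class and -0.13 over the mitochondrial class, and the median over all tested genes was 0.00. RNA was read from whole cultures and scaled to each library's total, so fewer cells of a kind and less RNA per cell cannot be told apart.

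**Figure D1:**
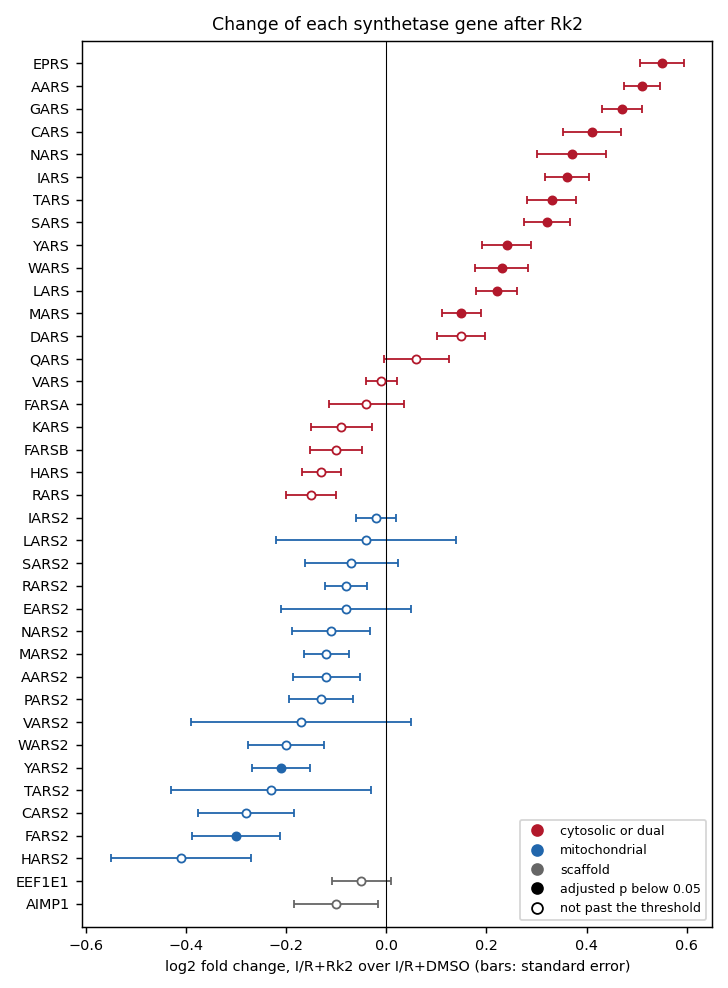
Log2 fold change of each synthetase gene, I/R+Rk2 over I/R+DMSO (4 libraries each), with standard errors from edgeR; red marks cytosolic or dual genes, blue mitochondrial genes, grey scaffold proteins, and filled points have an adjusted p below 0.05. The 12 filled red points lie between 0.15 and 0.55, all 16 blue points lie below 0, and the filled blue points are YARS2 at -0.21 and FARS2 at -0.30.

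Start regions were compared because rises were called among the cytosolic or dual synthetases and not among the mitochondrial ones. ATF4 binds, as a partner of C/EBP proteins, a composite site whose core reads TGATGNAA, and this was the only motif searched, on both strands, in RefSeq windows (GRCh38.p14) from 250 bases before to 50 bases after each annotated start. Windows were found for 32 of the 38 members (16 cytosolic or dual, 14 mitochondrial and 2 scaffold), but not for DARS, LARS, VARS, YARS, AARS2 and VARS2. The motif occurred in 7 of the 16 cytosolic or dual genes (43.8%), in 1 of the 14 mitochondrial genes (7.14%) and in neither scaffold gene. It occurred in 4.46% of all 27305 genes of the table and in 3.6% of its 15843 protein-coding genes. The 8 matches are printed to show where each lies and what surrounds it, 5′ to 3′ on the strand of the gene and with the match in capitals, in 30 bases, or in 48 where the match lay far before the start.
AARS: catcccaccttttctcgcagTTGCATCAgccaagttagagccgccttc
CARS: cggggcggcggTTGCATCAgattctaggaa
GARS: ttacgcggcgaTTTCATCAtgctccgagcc
IARS: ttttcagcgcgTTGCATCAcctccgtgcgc
MARS: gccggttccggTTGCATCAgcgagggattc
NARS: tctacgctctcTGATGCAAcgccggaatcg
TARS: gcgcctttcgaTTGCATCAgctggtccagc
YARS2: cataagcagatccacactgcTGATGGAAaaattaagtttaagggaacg

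These stretches lie at chr16:70289666-70289713 for AARS (minus strand), chr11:3057407-3057436 for CARS (minus), chr7:30594834-30594863 for GARS (plus), chr9:92293692-92293721 for IARS (minus), chr12:57488053-57488082 for MARS (plus), chr18:57621804-57621833 for NARS (minus), chr5:33440956-33440985 for TARS (plus) and chr12:32756067-32756114 for YARS2 (minus). The search fixes all letters of the match but N, so likeness within the capitals follows from it. AARS, CARS, IARS, MARS and TARS read TTGCATCA, the reverse complement of TGATGCAA, which NARS carries on its own strand, and GARS reads TTTCATCA. In CARS, GARS, IARS, MARS, NARS and TARS the match began between position -33 and position 15 from the annotated start, and in AARS and YARS2 it began at -187 and -197. The 7 cytosolic or dual genes with a match were all called higher after Rk2, with a median log2 fold change of 0.37 (0.15 to 0.51). Of the 9 with a window but no match, 3 were called higher (EPRS, SARS and WARS), and their median was -0.04 (-0.15 to 0.55). YARS2, the mitochondrial gene with a match, was called lower. The share called higher among all tested genes with the motif was not computed, so these counts have no baseline. The motif was picked after the changes of these genes were known. A match describes letters in a window, and binding at these sites was not measured.

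Among the 12 cytosolic or dual synthetases outside the multisynthetase complex, 8 rose (66.7%, against 11.0% of all tested genes) and the median log2 fold change was 0.28. AARS, the alanyl-tRNA synthetase, had the smallest p-value of all members. Its CPM (TMM-normalised counts, relative to library size) were 456, 428, 434 and 450 with DMSO and 648, 622, 630 and 619 with Rk2. The groups were far apart, with means of 442 ± 13.3 and 630 ± 13.3 (SD, n = 4 each) and a log2 fold change of 0.51 (standard error, SE, 0.036, adjusted p = 0.00017, edgeR). GARS, the glycyl-tRNA synthetase of both compartments, stood at 361, 345, 343 and 322 CPM with DMSO and at 477, 469, 474 and 473 CPM with Rk2. No library of either group reached the other's range, the Rk2 libraries lay close together, and the log2 fold change was 0.47 (standard error 0.04, adjusted p = 0.00047, edgeR). CARS, which charges cysteine, rose from 79.4 ± 3.68 to 106 ± 6.75 CPM (SD, n = 4 each). Its libraries read 84.9, 77.4, 78.1 and 77.3 CPM with DMSO and 96.0, 111, 107 and 108 CPM with Rk2, so the highest DMSO library stayed under the lowest Rk2 library (log2 fold change 0.41, SE 0.058, adjusted p = 0.00351, edgeR).

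NARS, the asparaginyl-tRNA synthetase, had 216, 247, 229 and 196 CPM with DMSO against 289, 289, 297 and 271 CPM with Rk2. The DMSO libraries were spread more widely than for most members (222 ± 21.2 CPM, SD, n = 4), yet all were below the Rk2 libraries (286 ± 10.9), with a log2 fold change of 0.37 (SE 0.069, adjusted p = 0.0106, edgeR). TARS, the threonyl-tRNA synthetase, went from 192, 174, 169 and 165 CPM to 221, 218, 220 and 219 CPM. Its groups did not overlap and the log2 fold change was 0.33 (standard error 0.049, adjusted p = 0.00448, edgeR). For SARS, the seryl-tRNA synthetase, which also loads the selenocysteine tRNA with serine, the DMSO libraries had 99.6, 93.9, 96.5 and 92.2 CPM and the Rk2 libraries 123, 119, 123 and 112 CPM. All Rk2 libraries were higher, by 24.7% on average (log2 fold change 0.32, SE 0.046, adjusted p = 0.00388, edgeR).

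The smaller rises outside the complex were those of YARS and WARS, which charge the aromatic amino acids tyrosine and tryptophan. YARS had 219, 193, 205 and 213 CPM with DMSO and 249, 235, 253 and 240 CPM with Rk2, with no overlap (log2 fold change 0.24, SE 0.048, adjusted p = 0.0141, edgeR). In the deposited FPKM the order of the YARS means was the opposite, at 103 ± 22.6 and 96.9 ± 11.4 (SD, n = 4 each). Division by a fixed gene length keeps the order seen in CPM, so these FPKM were not the counts over a fixed length. The reason for the difference was not tested. The exons of YARS overlap those of S100PBP on the other strand. WARS, which interferon is known to induce, had 79.3, 87.3, 86.9 and 82.3 CPM with DMSO and 95.7, 99.3, 105 and 93.3 CPM with Rk2. The groups were separate but close (log2 fold change 0.23, SE 0.053, adjusted p = 0.0224, edgeR), and without I/R+Rk2 replicate 2 or replicate 3 the call was lost, at an adjusted p of up to 0.0587 in edgeR.

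The other 4 cytosolic synthetases outside the complex were not called. HARS, the histidyl-tRNA synthetase, had 77.1 to 82.0 CPM with DMSO and 71.3 to 74.0 CPM with Rk2, groups that did not overlap (log2 fold change -0.13, adjusted p = 0.0507, edgeR). FARSA and FARSB, the catalytic and the partner subunit of phenylalanyl-tRNA synthetase, had log2 fold changes of -0.04 and -0.10. VARS, the valyl-tRNA synthetase, had the narrowest difference, with 235 to 245 CPM with DMSO and 235 to 242 CPM with Rk2 (log2 fold change -0.01). Together with the 4 uncalled genes of the multisynthetase complex they had a median log2 fold change of -0.07.

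**Figure D2:**
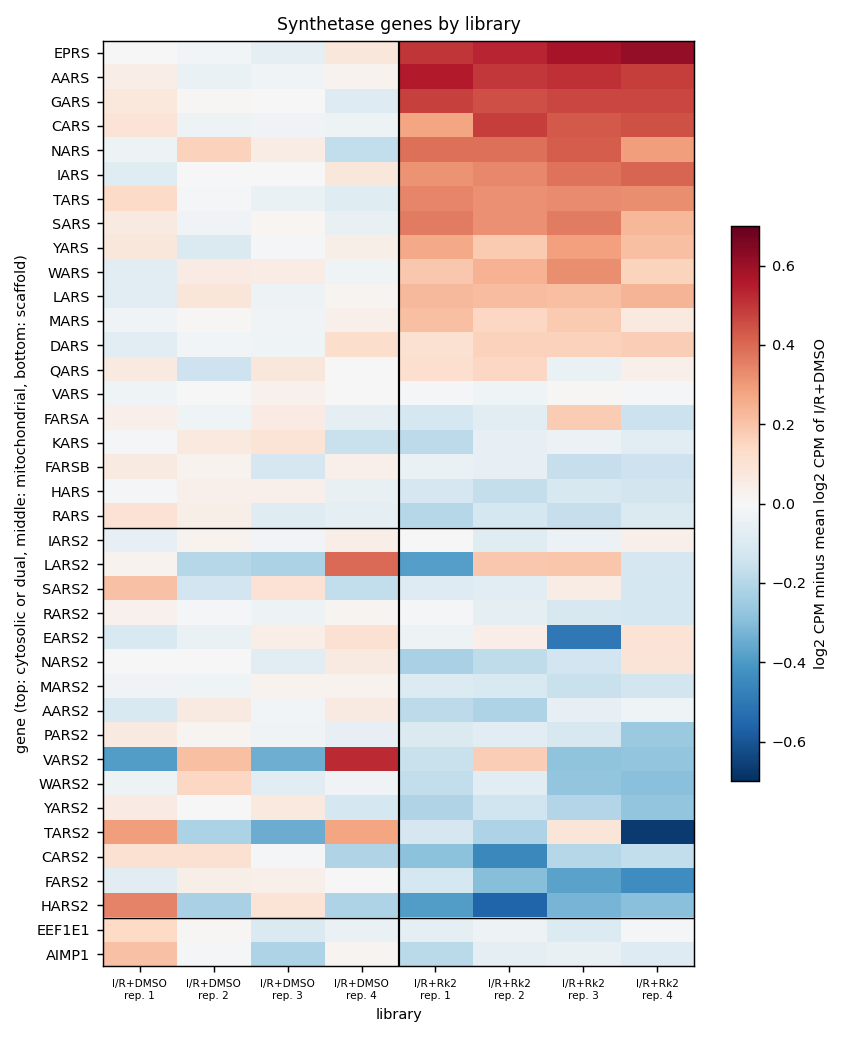
Each row is a synthetase gene and each column a library, coloured by log2 CPM minus the gene's mean log2 CPM over the 4 I/R+DMSO libraries (red higher, blue lower), with cytosolic or dual genes above, mitochondrial genes in the middle and scaffold proteins below. In the 12 genes from EPRS down to MARS every I/R+Rk2 library is higher than every I/R+DMSO library, and in the mitochondrial rows VARS2, LARS2, TARS2 and HARS2 vary most between libraries.

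Within the multisynthetase complex 4 of the 8 synthetases rose, and the median log2 fold change was 0.15. EPRS, which joins glutamyl- and prolyl-tRNA synthetase in a single protein, rose most of all 38 members. Its libraries had 260, 256, 249 and 275 CPM with DMSO and 367, 376, 387 and 398 CPM with Rk2. Means were 260 ± 11.1 and 382 ± 13.4 CPM (SD, n = 4 each), an increase of 46.8% with wide separation of the groups (log2 fold change 0.55, SE 0.044, adjusted p = 0.00029, edgeR). IARS, the isoleucyl-tRNA synthetase, went from 339, 360, 359 and 380 CPM to 447, 454, 467 and 477 CPM. All Rk2 libraries exceeded all DMSO libraries, with a log2 fold change of 0.36 (SE 0.044, adjusted p = 0.00187, edgeR). LARS, the leucyl-tRNA synthetase, also described as a sensor of leucine for mTORC1, had 182, 203, 187 and 194 CPM with DMSO and 224, 222, 221 and 226 CPM with Rk2. It rose by 16.5% and its groups did not overlap (log2 fold change 0.22, SE 0.04, adjusted p = 0.00918, edgeR).

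MARS, which charges both the initiator and the elongator methionine tRNA, had the smallest of the called rises. It read 242, 247, 242 and 252 CPM with DMSO and 284, 272, 279 and 258 CPM with Rk2. The groups did not overlap, but the lowest Rk2 library was close to the highest DMSO library (log2 fold change 0.15, SE 0.039, adjusted p = 0.0308, edgeR). With each library left out in turn MARS passed the threshold in 3 of 8 fits, with an adjusted p of up to 0.0804 in edgeR; the call was lost without I/R+DMSO replicate 2 or 3 and without I/R+Rk2 replicate 1, 2 or 3. The exons of MARS overlap those of DDIT3 and ARHGAP9 on the opposite strand over 874 bases, and whether reads were counted by strand is not given in the sources used here. DDIT3, the stress-induced factor CHOP, went from 12.3 ± 4.46 to 25.5 ± 4.68 CPM (SD, n = 4 each), and its part in the MARS value was not tested.

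The 4 uncalled synthetases of the complex lay on both sides of 0. DARS (aspartate) had a log2 fold change of 0.15 with 152 to 174 CPM with DMSO and 172 to 180 CPM with Rk2 (adjusted p = 0.0647, edgeR). QARS (glutamine) was at 0.06 and KARS, the lysyl-tRNA synthetase of both compartments, at -0.09. RARS (arginine) was at -0.15, with 194 to 221 CPM with DMSO and 179 to 192 CPM with Rk2, so its groups were separate although the adjusted p was 0.074 in edgeR. Of the dual enzymes GARS was called higher and KARS was not, and the difference between them was not tested.

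Neither scaffold protein was called in either direction. AIMP1 had 80.6, 69.7, 60.3 and 71.0 CPM with DMSO and 61.5, 67.1, 67.6 and 65.9 CPM with Rk2. The groups overlapped (log2 fold change -0.10, SE 0.084, adjusted p = 0.424, edgeR). EEF1E1 had 63.8, 58.4, 54.0 and 56.1 CPM with DMSO and 55.4, 56.5, 54.2 and 57.6 CPM with Rk2, again overlapping (log2 fold change -0.05, SE 0.059, adjusted p = 0.558, edgeR). AIMP2, the third scaffold protein of the complex and no member of the group, averaged 65 ± 4.96 CPM with DMSO and 56.9 ± 1.46 CPM with Rk2 (SD, n = 4 each), which is -0.19 on the log2 scale (adjusted p = 0.0606, edgeR). Exons of AIMP1 overlap TBCK on the opposite strand, and those of EEF1E1 overlap the readthrough gene EEF1E1-BLOC1S5 on the same strand.

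Synthetases are also sorted by fold into class I and class II, and called genes were found in both. Among cytosolic or dual genes of class I alone 6 of 9 rose, with a median log2 fold change of 0.22, and among those of class II alone 5 of 10 rose, with a median of 0.23. EPRS holds a domain of each class. In mitochondria the medians were -0.12 for the 9 class I genes and -0.13 for the 7 class II genes.

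In mitochondria all 16 synthetases had a negative log2 fold change, from -0.41 to -0.02, but most of these differences were within the spread of the libraries. YARS2, the mitochondrial tyrosyl-tRNA synthetase, had 46.6, 44.8, 47.0 and 41.2 CPM with DMSO and 38.8, 40.7, 38.9 and 37.0 CPM with Rk2. The lowest DMSO library was just above the highest Rk2 library (log2 fold change -0.21, SE 0.058, adjusted p = 0.0412, edgeR). FARS2, a single-chain phenylalanyl-tRNA synthetase unlike its cytosolic 2-subunit counterpart, had 8.12, 8.80, 8.75 and 8.53 CPM with DMSO and 7.86, 6.94, 6.59 and 6.32 CPM with Rk2. It fell by 18.9% and was the lowest member by level (log2 fold change -0.30, SE 0.088, adjusted p = 0.0478, edgeR). Both calls were near the threshold, and each passed it in only 1 of the 8 fits that left out a library. YARS2 passed without I/R+DMSO replicate 4 and FARS2 without I/R+Rk2 replicate 1, and over the 8 fits the adjusted p in edgeR was at most 0.103 for YARS2 and 0.117 for FARS2.

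The 14 other mitochondrial synthetases were not called. HARS2 (histidine) had the most negative log2 fold change of all members, -0.41, with 28.6 to 42.6 CPM with DMSO and 22.7 to 27.3 CPM with Rk2 (adjusted p = 0.0714, edgeR). The groups did not overlap, but the exons of HARS2 overlap ZMAT2 on the same strand and HARS on the opposite one. ZMAT2 itself went from 78.8 ± 2.96 to 65.3 ± 3.99 CPM (SD, n = 4 each), with its part in the HARS2 value not tested. CARS2 (cysteine) was at -0.28, TARS2 (threonine) at -0.23 and WARS2 (tryptophan) at -0.20 on the log2 scale, each with overlapping groups. MARS2 and PARS2, for methionine and proline, were lower in every Rk2 library than in any DMSO library, yet by little, at -0.12 and -0.13. Log2 fold changes were -0.12 for AARS2, -0.11 for NARS2, -0.08 for EARS2 and RARS2, -0.07 for SARS2, -0.04 for LARS2 and -0.02 for IARS2.

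VARS2 (valine), at -0.17 on the log2 scale, was the member that varied most between DMSO libraries, with 16.5, 25.0, 17.1 and 31.1 CPM with DMSO and 19.4, 24.4, 17.8 and 17.9 CPM with Rk2. The groups overlapped throughout, its coefficient of variation with DMSO was 31.1%, and its exons share 1858 bases with GTF2H4 on the same strand. GTF2H4 also varied between libraries, at 23.5 ± 9.81 and 16.9 ± 3.97 CPM (SD, n = 4 each). The median coefficient of variation over the mitochondrial class was 6.16% in I/R+DMSO and 7.52% in I/R+Rk2, against 4.68% and 3.42% over the cytosolic or dual class. Counts were lower too, with a lowest single count of 109 in the mitochondrial class and of 1224 in the cytosolic or dual class.

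Separation of the libraries was counted as well as calls. In 12 of the 20 cytosolic or dual genes every Rk2 library was above every DMSO library, where 15.4% of all tested genes were, and in 2 (HARS and RARS) every Rk2 library was below. In 5 of the 16 mitochondrial genes (FARS2, HARS2, MARS2, PARS2 and YARS2) every Rk2 library was below every DMSO library, where 12.9% of all tested genes were, and in none was it above.

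Summed over each class, transcripts for cytosolic or dual synthetases made up 4206, 4184, 4166 and 4124 CPM with DMSO and 4913, 4927, 5013 and 4912 CPM with Rk2. The groups were well apart, and the mean was 18.5% higher with Rk2 (4170 ± 34.9 against 4941 ± 48.4 CPM, SD, n = 4 each). Mitochondrial synthetases summed to 689, 670, 661 and 710 CPM with DMSO and 627, 637, 639 and 629 CPM with Rk2, again without overlap. The quotient of both sums was 6.10, 6.25, 6.30 and 5.81 in I/R+DMSO and 7.84, 7.74, 7.84 and 7.81 in I/R+Rk2. All Rk2 libraries thus had a higher ratio of cytosolic to mitochondrial synthetase transcripts, by 27.7% on average. On sums of the deposited FPKM the cytosolic or dual class was 16.1% higher, and the mean of the mitochondrial class differed by -6.14%.

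The same shift was read amino acid by amino acid, from the ratio of the cytosolic to the mitochondrial enzyme in each library. For 16 amino acids there were 17 such pairs, since EPRS has separate mitochondrial counterparts for glutamate (EARS2) and proline (PARS2) and since FARSA and FARSB share FARS2. The ratio was higher in I/R+Rk2 in 16 of the 17 pairs and the median change was 0.38 on the log2 scale. In 10 pairs no DMSO library reached any Rk2 library, and in 7 the groups overlapped. The ratios reuse the values behind the calls above, and ratios of other gene pairs were not computed for comparison. For alanine the log2 ratio of AARS to AARS2 in CPM was 3.93, 3.67, 3.77 and 3.74 in I/R+DMSO and 4.51, 4.49, 4.35 and 4.29 in I/R+Rk2. For isoleucine, whose enzymes IARS and IARS2 had the most even levels, it was 0.82, 0.84, 0.87 and 0.89 in I/R+DMSO and 1.18, 1.28, 1.27 and 1.23 in I/R+Rk2. Both pairs were cleanly separated although neither mitochondrial gene was called.

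The widest changes of the log2 ratio were 0.69 for cysteine (CARS/CARS2) and for proline (EPRS/PARS2). For glutamate the change was 0.65, for alanine 0.63, for threonine 0.56 with overlap, for asparagine 0.48, for tyrosine 0.45 and for tryptophan 0.43. Histidine and both phenylalanine pairs had changes of 0.21 to 0.26 with overlapping groups, and there the cytosolic gene had not risen. Valine, at 0.12, was alike in both respects. For leucine the change was 0.25 with overlap although LARS was called higher, as TARS was for threonine. Arginine was the exception, with a log2 ratio of RARS to RARS2 of 1.31 ± 0.077 in I/R+DMSO and 1.24 ± 0.089 in I/R+Rk2 (SD, n = 4 each). Pairs that share EPRS or FARS2 are not separate observations.

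**Figure D3:**
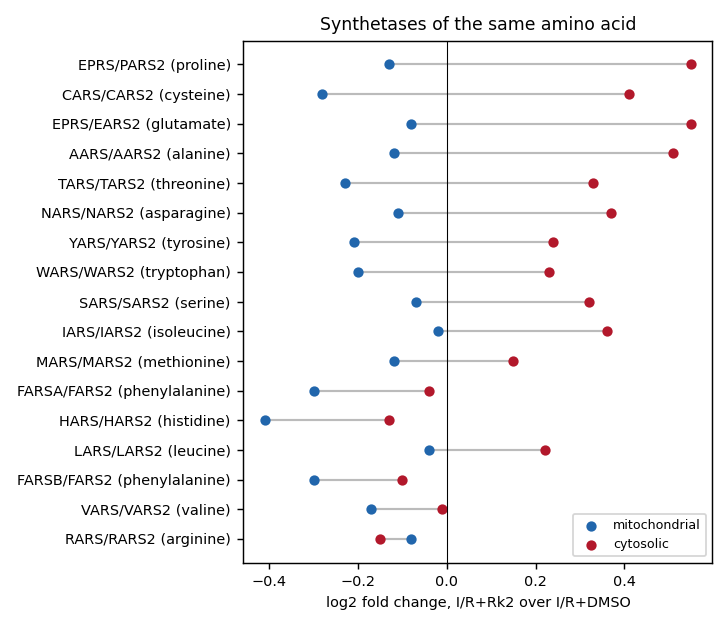
Each line joins the log2 fold changes (I/R+Rk2 over I/R+DMSO, 4 libraries each) of the cytosolic (red) and mitochondrial (blue) synthetase of 1 amino acid, ordered by the change of their ratio. In 16 of 17 pairs red lies to the right of blue; the exception is arginine, with RARS at -0.15 and RARS2 at -0.08.

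In the deposited FPKM, cytosolic enzymes were the more abundant partner in all 17 pairs. In I/R+DMSO the FPKM ratio ran from 1.67 for IARS over IARS2 to 20.3 for MARS over MARS2, with a median of 5.05. The length implied by counts and FPKM was 1424 bases for MARS and 1699 for GARS, where GENCODE v29 gives 7028 and 4152 exonic bases. The order below holds for FPKM only. In CPM, not scaled for length, the mean log2 ratio of MARS to MARS2 in I/R+DMSO was 2.95. There MARS (246 CPM) was below AARS (442), KARS (367), IARS (360), GARS (343) and EPRS (260). Class medians were 73.3 FPKM for cytosolic or dual, 36.5 for scaffold and 10.3 for mitochondrial genes. GARS was highest at 202 ± 16.4 FPKM, followed by KARS at 178 ± 12.7 and MARS at 176 ± 18.9, a trio whose levels did not differ beyond their spread, and then by AARS at 113 ± 2.62 (SD, n = 4 each). The lowest cytosolic genes were FARSB at 26.6 ± 1.35, CARS at 28.3 ± 1.79 and HARS at 33.1 ± 0.563 FPKM. IARS2 at 46.6 ± 1.7 and RARS2 at 38.9 ± 0.995 FPKM were the mitochondrial genes that reached the cytosolic range, and FARS2 at 4.33 ± 0.277 FPKM was last. Between these ends most neighbours in the order overlapped within their SD, as did NARS, IARS, QARS and VARS at 71.0 to 84.4 FPKM. After Rk2 AARS reached 166 ± 4.3 FPKM and GARS 269 ± 30.8, while KARS stood at 169 ± 8.21 and MARS at 189 ± 41.8 (SD, n = 4 each).

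**Figure D4:**
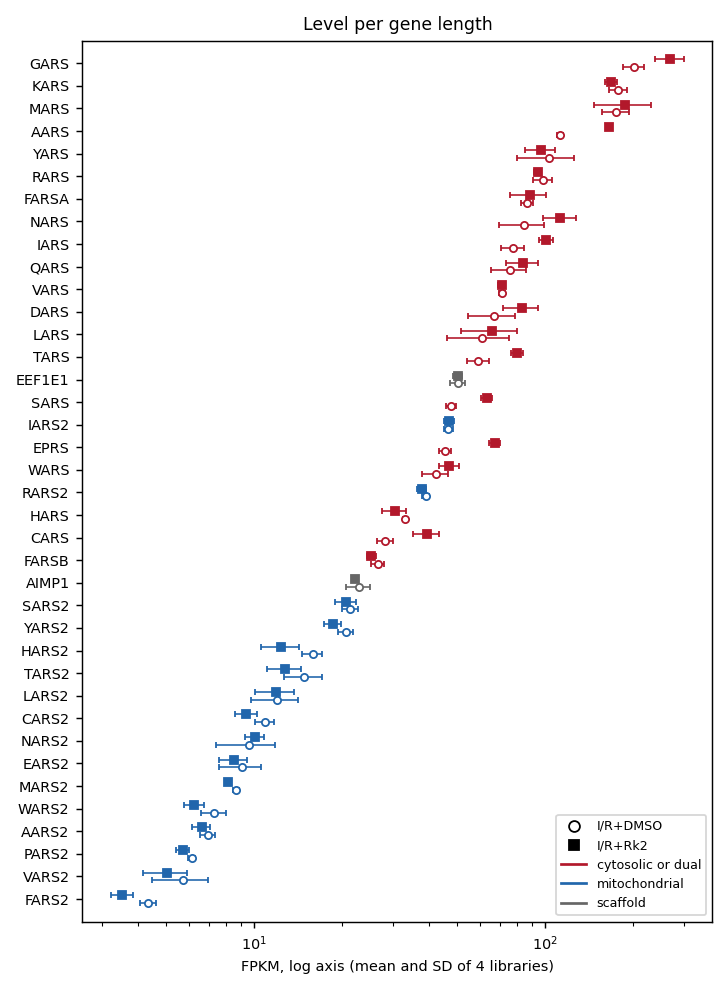
Mean FPKM of each synthetase gene on a log axis, with SD over 4 libraries (open circles I/R+DMSO, filled squares I/R+Rk2), ordered by the I/R+DMSO level. Levels run from 202 FPKM for GARS to 4.33 for FARS2 in I/R+DMSO, with IARS2 and RARS2 the highest of the mitochondrial genes.

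The proteins around aminoacylation were read next, to see whether they moved with the synthetases. Of 17 partners (proteins that export, edit, mend or amidate charged or uncharged tRNA, and synthetase relatives outside the group), 1 rose and 2 fell, with a median log2 fold change of -0.09. These are 5.88% and 11.8%, against 11.0% and 7.23% of all tested genes. The riser was XPOT, the exportin that carries mature tRNA out of the nucleus, which had 303, 352, 337 and 360 CPM with DMSO and 470, 436, 438 and 489 CPM with Rk2. Its groups were far apart (log2 fold change 0.44, SE 0.064, adjusted p = 0.00401, edgeR). ANKRD16, a cofactor of alanyl-tRNA synthetase that limits mischarging, and DTD2, a deacylase that clears mischarged tRNA, were called lower at -0.38 and -0.16. QRSL1, GATB and GATC, which make mitochondrial glutaminyl-tRNA without a glutaminyl-tRNA synthetase, were not called.

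Translation factors outside aminoacylation were called in both directions. Of 43 cytosolic initiation, elongation and release factors 5 were called higher and 6 lower, with a median log2 fold change of -0.12. The share called higher, 11.6%, was close to the 11.0% of all tested genes, and the share called lower was above their 7.23%. EIF5A, which helps ribosomes past proline stretches, fell by 0.23 on the log2 scale, EIF4G2 fell by 0.19, and EIF3A, the largest subunit of eIF3, rose by 0.24. Besides EIF3A the risers were EIF4B, ETF1, EIF4G3 and ABCE1. Of 13 mitochondrial translation factors none was called higher and 4 lower (30.8%, against 7.23% of all tested genes), with a median of -0.09. The 4 were MRRF, the ribosome recycling factor, at -0.23, and TACO1, an activator of COX1 translation, at -0.31, with MRPL58 and MTIF3. MRPL58, a peptidyl-tRNA hydrolase of the mitochondrial ribosome, was at -0.32, and MTIF3, an initiation factor, at -0.44. Fold change went with gene length across all genes (given below), and length-corrected values of these factors are not reported here.

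Calls were also frequent among other textbook ATF4 targets. In a list of 34 that holds no synthetase, 23 were called higher and 1 lower, with a median log2 fold change of 0.64. These are 67.6% and 2.94%, against 11.0% and 7.23% of all tested genes, and 17 of the calls exceeded 1.5-fold. ASNS, which makes asparagine, went from 217 ± 6.01 to 433 ± 7.89 CPM (SD, n = 4 each) (log2 fold change 1.00, adjusted p = 5.5e-06, edgeR). The secreted STC2 and INHBE rose by 1.51 and 1.98 on the log2 scale. ATF5, itself a stress-induced factor of the same family, was the gene called lower, at -0.44. The ATF4 transcript had 562, 487, 521 and 486 CPM with DMSO and 703, 689, 703 and 675 CPM with Rk2, all higher with Rk2 (log2 fold change 0.43, SE 0.052, adjusted p = 0.00186, edgeR). ATF4 protein was not measured in these libraries. The list was compiled with earlier results of these data known, and a larger share of it is no independent evidence of direction.

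**Figure D5:**
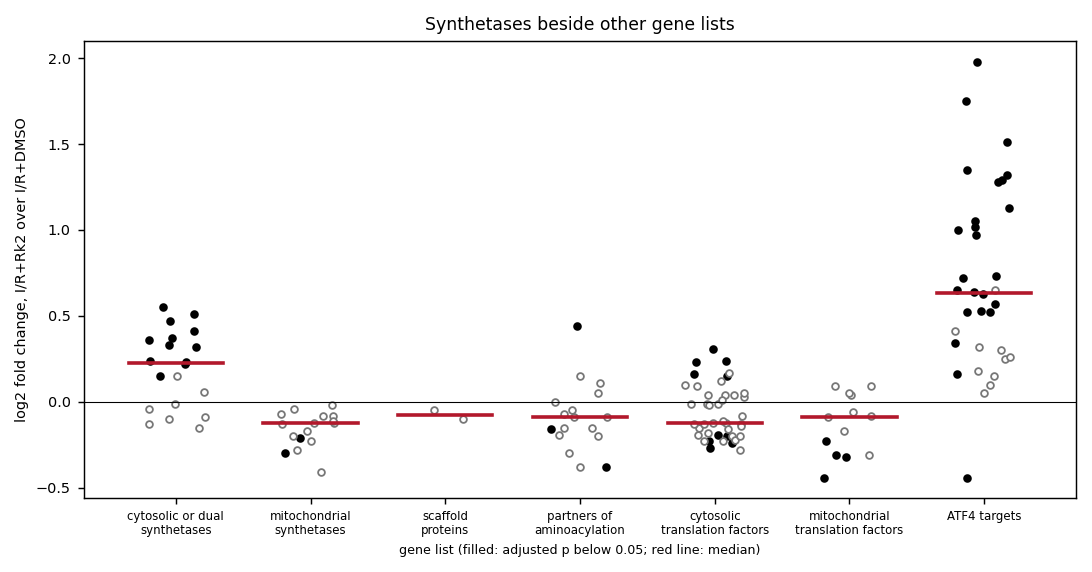
Log2 fold change (I/R+Rk2 over I/R+DMSO, 4 libraries each) of every tested gene in each list; filled points have an adjusted p below 0.05 in edgeR and red lines are medians. The cytosolic or dual synthetases (median 0.23) lie between the ATF4 targets (0.64) and the translation factors (-0.12 cytosolic, -0.09 mitochondrial).

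The label of the cells was checked against 9 hepatocyte markers, which summed to 11500 to 12600 CPM with DMSO and 12300 to 12700 CPM with Rk2, with AFP, the fetal albumin relative of hepatoma cells, the most abundant. APOB was called higher and FGB lower, and the other 7 were not called. Among blood cell markers LYZ was counted at 577 to 675 CPM and CD68 at 40.7 to 56.2, with neither called, and CD3E at no more than 0.212. Stromal markers summed to at most 4.27 CPM. PECAM1, the endothelial marker tested, was at most at 10.8 CPM, and the ranges of both groups overlapped in each of these lists. Across all genes the log2 fold change went with gene length (Spearman's rho 0.388 over 12928 genes, which share the 8 libraries and are not replicates), so a correction for length was also run. With it the same 12 cytosolic or dual synthetases were called higher, with a median log2 fold change of 0.26, whereas the mitochondrial calls were AARS2 and MARS2 in place of FARS2 and YARS2.

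AARS, CARS, EPRS, GARS, IARS, SARS and TARS were called higher in all 8 fits that left out a library and in all 12 other alternative fits. LARS, NARS and YARS were called in all 8 of the former and in 9 of the 12 latter, the exceptions being the fits on FPKM. WARS and MARS were the called rises that also depended on which library was left out. The 1.5-fold threshold is not among these fits, and no member passed it.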

How the data were processed

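RNA-seq of 8 HuH7 libraries was re-analysed, 4 per group, with groups taken from the deposited labels. Libraries were built by the authors with an MGIEasy kit and read on a BGISEQ-500. The authors deposited raw counts per gene, without normalization, and FPKM, scaled for gene length and library size. The submitters' processing notes name FastQC 0.11.5, HISAT2 2.2.1, StringTie 1.3.3 and hg38. The counting tool, its annotation and its strand setting are not given in the sources used here. Dates stood in place of 22 gene symbols among the counts, and these rows were given to no gene.

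Counts were tested in R 4.3.3 with edgeR 4.0.16 (robust quasi-likelihood, TMM, condition as the only term) over 12928 genes, those reaching 10 counts in 4 or more libraries, with Benjamini-Hochberg adjustment and a threshold of 0.05. Printed CPM are TMM-normalised, and fold changes set Rk2 over DMSO. The biological coefficient of variation was 17.1%. Alternatives were upper-quartile normalization, library size only, DESeq2 1.42.0, voom with sample weights (limma 3.58.1), no filter, a filter of 50 counts in each library, limma on FPKM after log2(FPKM + 1) or log2(FPKM + 0.1) for genes whose mean FPKM reached 0.5, log2(FPKM + 1) without that filter, a correction for gene length (loess, span 0.5, length derived from counts and FPKM), a replicate block, both together, a 1.5-fold threshold and leaving out each library. Steps were tested on simulated data. Exon overlaps come from GENCODE v29.

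The members and the lists were chosen with earlier results of these data known. All members are named. Values in every library are given for called members and for the 2 smallest p-values of each class. Of the other lists AIMP2, XPOT and the 3 genes with the smallest p were to be named. Some genes that the rule or the lists include are not reported here. ATF4, ATF5, DDIT3, GTF2H4, ZMAT2, EIF4B, ETF1, EIF4G3, ABCE1, MTIF3, QRSL1, GATB, GATC and the cell type markers were named after their values were seen.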

Additional observations from a re-analysis of the deposited data

Results flagged for a closer look

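In each member and group the highest and the lowest of the 4 libraries were compared with the other 3 by Dixon's test, which by chance alone marks about 1 in 20 groups. Of 76 groups 2 were marked. CARS stood at 84.9 CPM in I/R+DMSO replicate 1 and at 77.3 to 78.1 CPM in the other DMSO libraries, and this high library was still below every Rk2 library. PARS2 stood at 14.5 CPM in I/R+Rk2 replicate 4 and at 16.1 to 16.5 CPM in the other Rk2 libraries.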

How the results depend on the processing

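Cytosolic or dual synthetases called higher numbered 12, and 7 under each limma fit on FPKM, 0 with a 1.5-fold threshold and 10 to 13 with a library left out. Cytosolic or dual genes called lower numbered 0, but 2 with DESeq2, 2 with upper-quartile normalization, 1 with voom, 1 with at least 50 counts, and 0 to 1 with a library left out. Mitochondrial genes called lower numbered 2, but 0 with the 1.5-fold threshold, library size only, the FPKM fits, no filter, and the replicate block with or without the length correction, and 0 to 2 with a library left out. With upper-quartile normalization they numbered 3, MARS2 being added, and with DESeq2 they were HARS2 and YARS2. Of the 12 fits on all libraries FARS2 was called lower in 3 and YARS2 in 4. The median log2 fold change of the cytosolic or dual class was 0.23, against 0.26 with the length correction, with library size only and with the block and length correction, 0.20 with upper-quartile normalization and with voom, 0.16 on log2(FPKM + 0.1) and 0.15 on log2(FPKM + 1) with or without the filter. The mitochondrial median was -0.13, against -0.16 with the length correction, alone or with the block, and with upper-quartile normalization, -0.10 with library size only and on log2(FPKM + 0.1), and -0.08 on log2(FPKM + 1) with or without the filter. Over all genes 2351 were called, against 393 past 1.5-fold, 1106 on log2(FPKM + 0.1), 1121 on log2(FPKM + 1), 971 without its filter, 1468 with the block and length correction, and 1291 to 2282 with a library left out. The share of calls that were higher was 60.2%, against 48.9% with upper-quartile normalization, 70.6% with library size only, 72.2% to 72.8% on FPKM, 50.8% with the length correction and 51.8% with the block as well. The replicate block alone gave 1814 calls and 11 cytosolic or dual genes called higher. Same-numbered libraries did not deviate together (correlations of -0.00945 to 0.0845), so the replicate numbers were not read as pairs.

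No member with a reversed sign was past the threshold. Reversed log2 fold changes were 0.03 for EARS2 without I/R+Rk2 replicate 3, 0.09 for EEF1E1, 0.03 for FARSA and 0.04 for SARS2 with the length correction, alone or with the block, 0.02 for FARSA, 0.01 for IARS2 and -0.07 for YARS in the FPKM fits, 0.09 for NARS2 on log2(FPKM + 0.1) and 0.08 on log2(FPKM + 1), 0.01 for IARS2 and 0.02 for VARS with library size only, 0.03 for LARS2 with voom, 0.12 for LARS2 and 0.03 for VARS2 without I/R+DMSO replicate 4, 0.07 for LARS2 without I/R+Rk2 replicate 1, and 0.0 for SARS2 without I/R+DMSO replicate 1. With a library left out the ranges were -0.14 to 0.03 for EARS2, -0.11 to 0.12 for LARS2, -0.12 to 0.0 for SARS2 and -0.30 to 0.03 for VARS2. The cause was not tested. The lowest single count was 109 in the mitochondrial class and 1224 in the cytosolic or dual class.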
